A study of Mus musculus with 8 samples.

Results

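The genes of the IL-6 family of cytokines, of their receptors and of the STAT3 pathway were followed in pancreatic stellate cells (PSCs) exposed to medium conditioned by pancreatic cancer organoids. The 10 genes, chosen by symbol, were Il6, Lif and Il11 (ligands), Il6ra, Il11ra1, Il6st, Lifr and Osmr (receptors), Stat3, and its feedback gene Socs3. All 10 were present in the table of 12160 genes, and all 10 had enough counts to be tested in each comparison.

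IL-6 family cytokines bind a receptor chain that is specific to each ligand and signal through the shared chain gp130, encoded by Il6st. Janus kinases bound to gp130 then phosphorylate STAT3, which enters the nucleus and switches on its targets, among them Socs3, whose product shuts the receptor complex off again. In pancreatic cancer, IL-6 and LIF from fibroblasts are known as signals of the inflammatory fibroblast state, and IL-11 is known as a cytokine of activated fibroblasts.

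Immortalized mouse PSCs, fibroblast-like cells that reside in the pancreas, were seeded in Matrigel domes and kept in growth medium for 4 days and then in 1 of 3 media for 4 days more. The groups were 3 domes with conditioned medium (CM) from KPC organoids carrying an shRNA against Brca2 (shBrca2-CM), 3 domes with CM from KPC organoids carrying a non-targeting shRNA (shControl-CM), and 2 domes without organoid CM (control medium). KPC organoids are 3D cultures of mouse pancreatic cancer cells, and the gene was silenced in the organoids, whose RNA was not measured here. The sample records name the control as the PSCs' own CM, its titles name it DMEM and the study's Results name it growth medium; where the sources differ on this, the group is called control medium. The PSCs were 1 line of which no strain or age is given, and organoid CM was collected in DMEM with less serum than growth medium holds. Should the control have been growth medium, an effect of organoid CM and an effect of serum cannot be told apart. The domes are described as independent cultures, but whether each received separately collected CM is not stated, so p-values measure the spread between these domes only.

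The authors sequenced mRNA from its 3′ end and counted reads per gene, and each library held between 655996 and 1095534 counts in the shBrca2-CM group, between 1093609 and 1624392 in the shControl-CM group, and 4623846 or 5476988 in the control group. A floor of 3 counts, which covers counting error only, lay between 0.521 and 4.34 CPM (CPM being the share of a library's counts, scaled by edgeR's TMM factors). All 10 fibroblast and stellate markers, such as Col1a1 and Pdgfrb, were counted, and their summed level was 2851 to 3871 CPM in the 6 CM libraries and 7433 to 9078 CPM in the control libraries. The markers did not move as 1. By the call defined below, 1 was higher and 6 lower with shControl-CM against control medium, and 3 higher and 6 lower with shBrca2-CM. In group means for control medium, shControl-CM and shBrca2-CM, Vim fell (3756, 361 and 586 CPM) and Thy1 rose (231, 834 and 645.5 CPM). Of the epithelial markers 3 of 8 were counted (Krt18, Krt19 and Muc1), summing to 57.7 to 94.1 CPM with CM and 37.0 to 41.7 CPM in control medium. Krt18 and Muc1 were higher with both CMs, and Krt19 was lower. Of the immune markers 3 of 8 (Cd68, Csf1r and Lyz2) summed to 13.0 to 36.0 CPM with CM and 9.46 to 11.47 CPM in control medium, and 2 of 5 endothelial markers (Kdr and Tek) to 0 to 1.45 and 3.44 to 3.48 CPM. Defining markers such as Epcam, Cdh1, Ptprc and Pecam1 were not analysed here. The part of these shifts in the results below was not tested, and in bulk RNA fewer cells of a type and less RNA per cell cannot be told apart. Replicate 3 of shControl-CM differed more from replicates 1 and 2 than these did from each other. Chi-square per degree of freedom of its counts against them was 8.35 and 4.21, while replicates 1 and 2 differed by 2.99. The 2 control libraries differed by 6.64. As this measure grows with depth, it does not settle whether replicate 3 is an outlier. The number of DE genes between the CMs changed more without replicate 1 than without replicate 3, as given at the end. Where a member's or list gene's call changed without shControl-CM replicate 3, the value or adjusted p with and without it is given below.

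To see which members share sequence near their start sites, RefSeq promoter windows (GRCm38.p6, from 250 bases before to 50 bases after a transcript start) were searched on both strands. All 10 genes matched, with 13 windows. The AP-1 motif TGANTCA, which FOS and JUN proteins bind, occurred in 4 of these 13 windows, 1 for each of the 3 ligand genes and Osmr, beside 7.81% of the 32851 windows of all genes. The ligand promoters are shown because these genes moved furthest below; each runs 5′ to 3′ on the gene's strand, from 250 to 21 bases before the start, with motif matches in capitals.
Il6, chr5:30012864-30013093, plus strand: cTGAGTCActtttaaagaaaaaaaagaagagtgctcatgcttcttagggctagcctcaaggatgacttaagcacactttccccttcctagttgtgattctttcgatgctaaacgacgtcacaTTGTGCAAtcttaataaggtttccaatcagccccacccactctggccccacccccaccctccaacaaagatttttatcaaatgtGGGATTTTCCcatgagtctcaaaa
Lif, chr11:4257318-4257547, plus strand: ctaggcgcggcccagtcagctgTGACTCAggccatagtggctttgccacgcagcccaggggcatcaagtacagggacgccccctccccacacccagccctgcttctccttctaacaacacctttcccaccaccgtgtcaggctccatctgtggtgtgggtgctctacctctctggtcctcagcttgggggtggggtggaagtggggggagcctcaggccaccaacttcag
Il11, chr7:4778162-4778391, minus strand: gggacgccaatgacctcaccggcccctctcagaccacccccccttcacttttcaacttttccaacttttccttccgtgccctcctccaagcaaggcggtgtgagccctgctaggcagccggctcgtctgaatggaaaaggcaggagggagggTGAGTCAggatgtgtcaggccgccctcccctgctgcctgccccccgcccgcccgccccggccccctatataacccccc
The AP-1 match lay at −249 to −243 in Il6, at −228 to −222 in Lif and at −98 to −92 in Il11, counted from the start. For Il11 this is the window of a shorter RefSeq transcript, and the window of its longer transcript held no match to the motifs searched. The Osmr match lay at bases 4 to 10 after the start. In Il6 the other capitals mark a C/EBP match (TTGCNNAA, read on the opposite strand, in 10.8% of all windows) and an NF-kB match (in 4.51% of all windows).
The STAT motif TTCNNNGAA was found in 1 of the 13 windows, that of Socs3, beside 8.3% of all windows, at −154 to −146, shown with its flanks to 30 bases.
Socs3, chr11:117969501-117969530, minus strand: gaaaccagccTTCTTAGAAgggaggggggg
A heat shock motif (GAANNTTC, in 7.86% of all windows) occurred in Il6st alone, and the CRE motif TGACGTCA (in 1.79% of all windows) in no member. None of these matches overlapped another, and a match is a description of the letters, not evidence that a factor binds.

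The 3 ligands and Socs3 shared 1 order of the media in their group means, highest with shControl-CM, intermediate with shBrca2-CM and lowest with control medium. Stat3 had the same order of means over a narrow range (162, 130.5 and 124 CPM) and was not called. No receptor gene, nor Stat3, had a log2 fold change beyond 0.88 in size in any of the 3 comparisons. A gene was called differentially expressed (DE) where edgeR's quasi-likelihood test gave an adjusted p-value under 0.1 (Benjamini-Hochberg, over all genes tested), the log2 fold change exceeded 0.5 in size and the mean normalized count exceeded 5. Between shBrca2-CM and shControl-CM, 3 of the 10 genes were DE and all 3 were lower with shBrca2-CM (Il11, Lif and Socs3), against 3.09% of all 11035 genes tested that were DE, 1.54% higher and 1.55% lower. The values of the CM groups did not overlap for 5 of the 10 genes, against 19.8% of all genes. With shControl-CM against control medium, 4 were higher (Il6, Lif, Il11 and Socs3) and 1 lower (Il11ra1), against 37.1% of 12086 genes called, 18.2% higher and 18.9% lower. With shBrca2-CM against control medium, 8 were higher and 1 lower (Il11ra1), all but Stat3, against 37.8% of 12049 genes called, 18.6% higher and 19.2% lower. Both comparisons with control medium use the same 2 control libraries, so their values are given side by side only. The values of the groups did not overlap for 7 of the 10 genes with shControl-CM against control medium and for 9 of the 10 with shBrca2-CM, against 59.9% and 57.4% of all genes. The median log2 fold change of the 10 genes was −0.09 between the CMs, 0.43 with shControl-CM against control medium and 0.81 with shBrca2-CM against it, beside −0.095 to 0.028 over all genes tested.

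**Figure D1:**
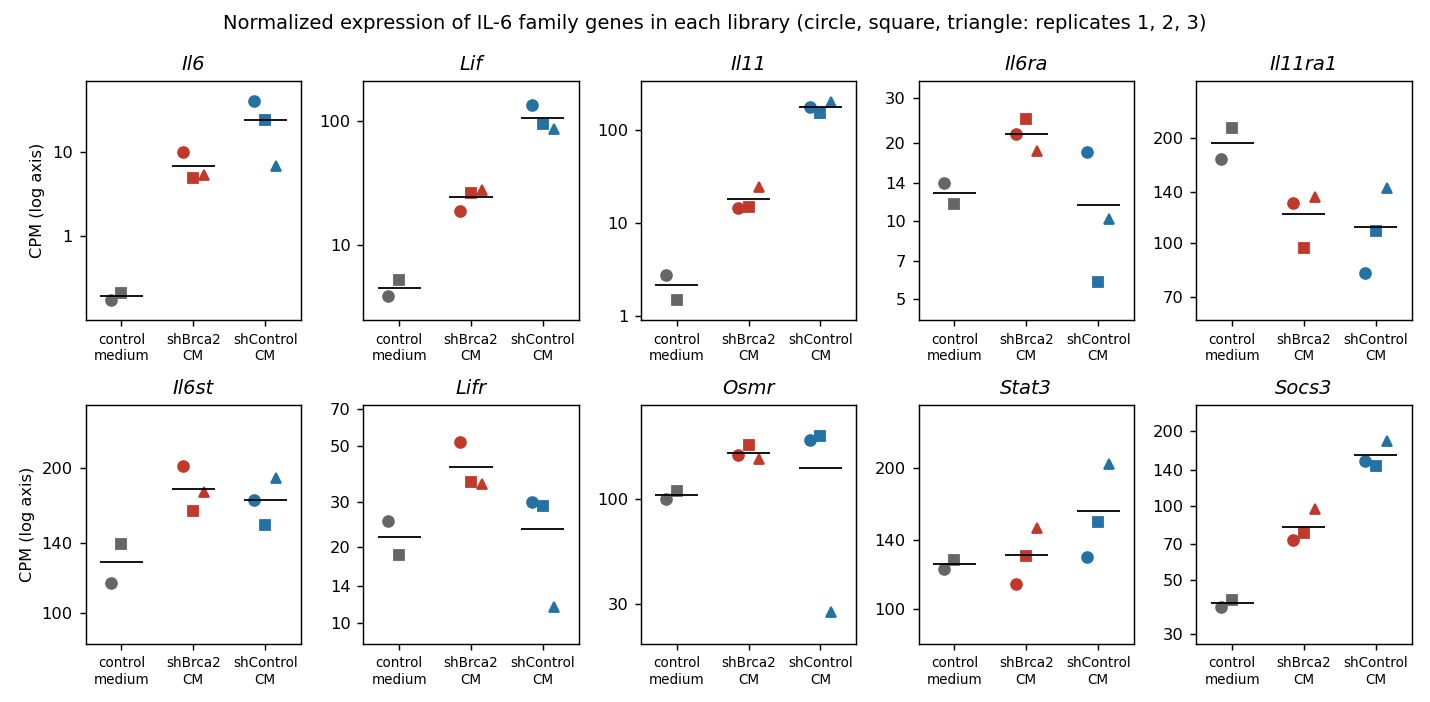
Normalized expression (CPM, logarithmic axis whose range differs between panels) of the 10 genes in each of the 8 libraries; circles, squares and triangles are replicates 1, 2 and 3, and black lines are group means. Il11, Lif and Socs3 stepped up from control medium to shBrca2-CM to shControl-CM without overlap, while Osmr of shControl-CM replicate 3 lay at 27.2 CPM, far below the other values of its group.

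Il11 encodes interleukin-11, which signals through its own receptor chain and gp130 and is known for its part in fibrosis. The gene lies at chr7:4772373-4782907 (GRCm38.p6). Its counts were 275, 157 and 294 in the shControl-CM domes, 10, 12 and 27 in the shBrca2-CM domes, and 16 and 7 in the control domes, whose libraries were deeper. Normalized, it was at 176, 152 and 200 CPM with shControl-CM, 14.5, 14.9 and 24.0 CPM with shBrca2-CM, and 2.78 and 1.51 CPM with control medium. Every shControl-CM dome lay far above every shBrca2-CM dome, every CM dome lay above both control domes, and no groups overlapped. Il11 was 9.36-fold lower with shBrca2-CM than with shControl-CM (log2 fold change −3.23, SE 0.22, edgeR adjusted p = 1.05e-05), which was rank 4 by p-value among all genes tested. Against control medium, it rose with shControl-CM by 6.29 on the log2 scale (SE 0.29, edgeR adjusted p = 8.38e-07) and with shBrca2-CM by 3.04 (SE 0.40, edgeR adjusted p = 6.67e-09). The difference between the CMs lay between −3.54 and −3.11 over the 6 fits that each left out 1 library, and was DE in each.

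Lif encodes leukemia inhibitory factor, which signals through the LIF receptor and gp130 and acts on both fibroblasts and cancer cells of the pancreas. It lies at chr11:4257568-4272514. Its level was 134.5, 94.7 and 86.2 CPM with shControl-CM, 18.8, 26.1 and 27.5 CPM with shBrca2-CM, and 3.82 and 5.16 CPM with control medium. The 3 media were again fully separated, with the shControl-CM domes the most spread. Lif was 4.22-fold lower with shBrca2-CM than with shControl-CM (log2 fold change −2.08, SE 0.24, edgeR adjusted p = 5.88e-04), from −2.22 to −1.87 when each library was left out. Against control medium, it rose with shControl-CM by 4.55 on the log2 scale (SE 0.30, edgeR adjusted p = 5.70e-06) and with shBrca2-CM by 2.46 (SE 0.33, edgeR adjusted p = 6.96e-09).

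Il6 encodes interleukin-6, the founding cytokine of the family, at chr5:30013114-30019975. Few reads came from it: the shControl-CM domes gave 64, 25 and 10 counts, the shBrca2-CM domes 7, 4 and 6, and the control domes 1 each. These amount to 41.0, 24.2 and 6.79 CPM, to 10.1, 4.98 and 5.33 CPM, and to 0.174 and 0.215 CPM. All 6 CM domes lay above the control domes, but the CM groups overlapped, because shControl-CM replicate 3 was lower than shBrca2-CM replicate 1. Over the summed counts, Il6 was 127-fold higher with shControl-CM than with control medium (95% interval 34.1 to 1060, counting error only) and 33.7-fold higher with shBrca2-CM (8.01 to 301), and both increases were DE (edgeR adjusted p = 5.88e-04 and 5.17e-06). The mean normalized count in the latter comparison, 7.34, was close to the minimum of 5: in libraries thinned to the smallest total Il6 fell short of that minimum and was not called (log2 fold change 5.36, edgeR adjusted p = 0.00653), and edgeR's own expression filter left it untested. Between the CMs, Il6 did not pass the test (log2 fold change −1.84, 95% interval −3.16 to −0.51, SE 0.61, edgeR adjusted p = 0.188). Without shControl-CM replicate 3 it did, with a log2 fold change of −2.32 and an edgeR adjusted p = 5.87e-04, and over all 6 fits that left out 1 library the value ranged from −2.32 to −1.14.

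**Figure D2:**
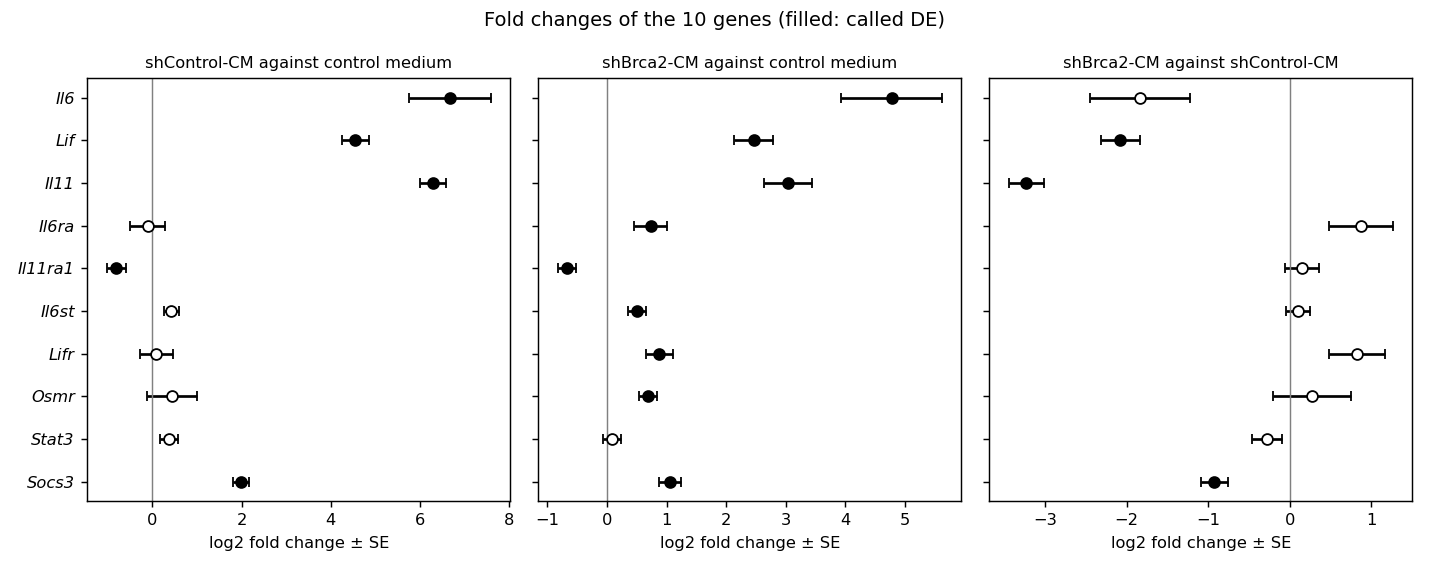
Log2 fold changes with their standard errors (horizontal axis; its range differs between panels) of the 10 genes in the 3 comparisons, with filled circles for genes called DE. The ligands lay furthest from 0 in each comparison, from 4.55 to 6.68 with shControl-CM and from 2.46 to 4.78 with shBrca2-CM against control medium.

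Il6st encodes gp130, the chain that every receptor complex of these ligands shares. It was at 172, 153 and 191 CPM with shControl-CM, 202, 163 and 178 CPM with shBrca2-CM, and 116 and 140 CPM with control medium. The CM groups overlapped over most of their range, and both control domes lay below all CM domes. Between the CMs the log2 fold change was 0.10 (95% interval −0.22 to 0.42, edgeR adjusted p = 0.836), so a difference beyond 0.42 on the log2 scale lay outside the interval. Against control medium it was 0.43 with shControl-CM (edgeR adjusted p = 0.0812), short of the fold limit, and 0.51 with shBrca2-CM (edgeR adjusted p = 0.00572), just past it. The call with shBrca2-CM was lost without shBrca2-CM replicate 1 (0.42), without control replicate 1 (0.38) and without a filter on low counts (0.49). In libraries thinned to the smallest total, Il6st was also DE with shControl-CM (0.58, edgeR adjusted p = 0.0559).

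Il11ra1 encodes the receptor chain specific to IL-11. It was the only member lower with both CMs than with control medium, at 82.0, 108 and 144 CPM with shControl-CM, 130, 97.1 and 136 CPM with shBrca2-CM, and 174.5 and 214 CPM with control medium. The CM groups overlapped fully and both lay below the control domes. Against control medium, Il11ra1 fell by 0.81 on the log2 scale with shControl-CM (SE 0.22, edgeR adjusted p = 0.0192) and by 0.67 with shBrca2-CM (SE 0.16, edgeR adjusted p = 4.10e-04), and between the CMs the difference was 0.15 (95% interval −0.31 to 0.61, edgeR adjusted p = 0.824). The call with shControl-CM was lost without control replicate 2 (log2 fold change −0.66, edgeR adjusted p = 0.178). Il11ra1 has a near-identical neighbour, Il11ra2 (chr4:42655275-42665763, against chr4:41760443-41769473), which was not analysed here, so reads may have been shared between them and the level is uncertain.

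Il6ra encodes the chain that binds IL-6. It was at 18.6, 5.80 and 10.2 CPM with shControl-CM, from 29, 6 and 15 counts, at 21.7, 24.9 and 18.6 CPM with shBrca2-CM, from 15, 20 and 21 counts, and at 14.1 and 11.6 CPM with control medium. The shBrca2-CM domes lay above the others by a narrow margin, and the shControl-CM domes lay on both sides of the control domes. The log2 fold change between the CMs was 0.87 (SE 0.39, edgeR adjusted p = 0.358). Without shControl-CM replicate 1 it was 1.37 and DE (edgeR adjusted p = 0.0487). Against control medium, Il6ra rose with shBrca2-CM by 0.73 (SE 0.28, edgeR adjusted p = 0.0319) whereas shControl-CM gave −0.11 (edgeR adjusted p = 0.850). The increase with shBrca2-CM was lost without shBrca2-CM replicate 2 (edgeR adjusted p = 0.130), without control replicate 2 (edgeR adjusted p = 0.110), with all groups in 1 fit (edgeR adjusted p = 0.128), and under both tests of DESeq2, likelihood ratio (adjusted p = 0.116) and Wald (adjusted p = 0.135).

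Lifr encodes the receptor chain for LIF. It was at 30.1, 29.0 and 11.6 CPM with shControl-CM, at 52.1, 36.1 and 35.5 CPM with shBrca2-CM, and at 25.2 and 18.5 CPM with control medium. All shBrca2-CM domes lay above all others, and shControl-CM replicate 3 was the lowest of the 8. Lifr rose with shBrca2-CM against control medium by 0.88 on the log2 scale (SE 0.23, edgeR adjusted p = 0.00146). The difference between the CMs was 0.83 (95% interval 0.08 to 1.57, edgeR adjusted p = 0.311). It was 0.46 without shControl-CM replicate 3, and 1.07 and DE without shControl-CM replicate 1 (edgeR adjusted p = 0.0889). With shControl-CM against control medium it was 0.09 (edgeR adjusted p = 0.875).

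Osmr encodes the receptor chain for oncostatin M. It was at 166, 185 and 158 CPM with shBrca2-CM and at 100.3 and 110 CPM with control medium, while the shControl-CM domes were at 198, 206 and 27.2 CPM. Replicates 1 and 2 of shControl-CM were thus the highest of the 8 libraries and replicate 3 the lowest, from 40 counts. With shBrca2-CM against control medium, Osmr rose by 0.69 on the log2 scale (SE 0.15, edgeR adjusted p = 1.72e-04), a call that was lost with all groups in 1 fit (edgeR adjusted p = 0.283). With shControl-CM the log2 fold change was 0.44 with all libraries (edgeR adjusted p = 0.574), and 0.94 and DE without replicate 3 (edgeR adjusted p = 1.08e-04). Between the CMs it was 0.27 (95% interval −0.77 to 1.32, edgeR adjusted p = 0.869), and −0.24 without that replicate.

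Stat3 encodes the transcription factor itself and is known as one of its own targets. It was at 129, 154 and 204 CPM with shControl-CM, 113, 129 and 149 CPM with shBrca2-CM, and 121.5 and 127 CPM with control medium. The ranges of the CM groups overlapped, and the control domes lay inside the range of the shBrca2-CM domes. Stat3 was called in no comparison: its log2 fold change was −0.28 between the CMs (95% interval −0.68 to 0.12, edgeR adjusted p = 0.570), 0.37 with shControl-CM (−0.07 to 0.82, edgeR adjusted p = 0.174) and 0.09 with shBrca2-CM against control medium (−0.22 to 0.40, edgeR adjusted p = 0.697). Without shControl-CM replicate 1, the value against control medium was 0.53 and DE (edgeR adjusted p = 0.0330).

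Socs3 encodes the feedback inhibitor that binds gp130 and Janus kinases, and its RNA is a common measure of recent STAT3 activity. It was at 152, 145 and 183 CPM with shControl-CM, 72.3, 77.2 and 96.8 CPM with shBrca2-CM, and 38.6 and 41.5 CPM with control medium. The 3 media were fully separated in the order of the ligands, with smaller steps. Socs3 was 1.90-fold lower with shBrca2-CM than with shControl-CM (log2 fold change −0.92, SE 0.16, edgeR adjusted p = 0.0109). It rose against control medium by 1.99 on the log2 scale with shControl-CM (SE 0.18, edgeR adjusted p = 5.44e-05) and by 1.06 with shBrca2-CM (SE 0.18, edgeR adjusted p = 2.28e-06). The difference between the CMs lay between −1.06 and −0.83 when each library was left out, and the call was lost without shBrca2-CM replicate 2 (−0.88, edgeR adjusted p = 0.107).

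**Figure D3:**
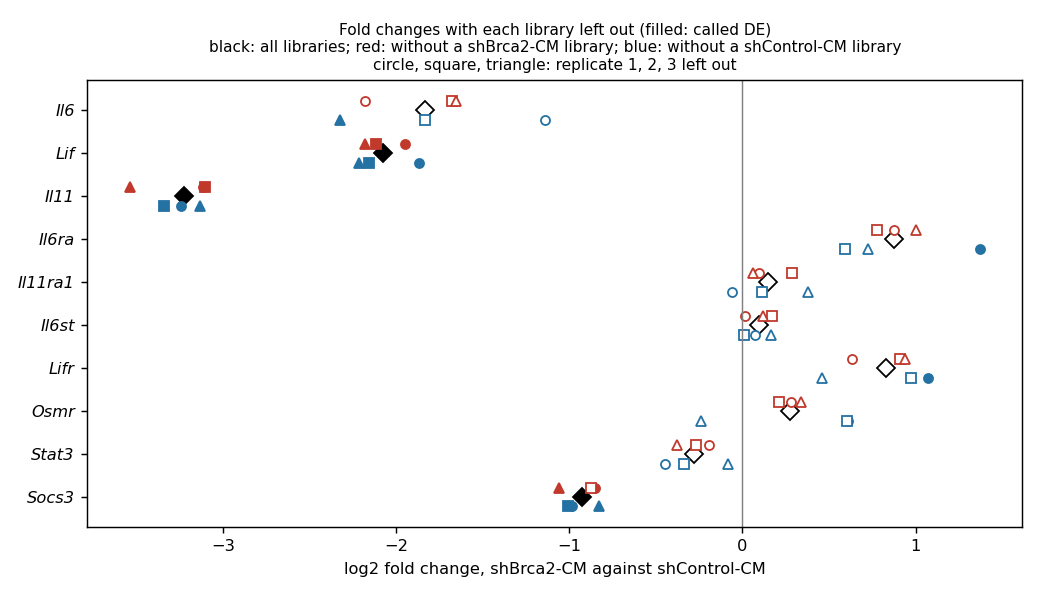
Difference between shBrca2-CM and shControl-CM (log2 fold change, horizontal axis; below 0 is lower with shBrca2-CM) for each of the 10 genes with all libraries (black diamonds) and with 1 library left out (red for shBrca2-CM, blue for shControl-CM; circle, square and triangle for replicates 1, 2 and 3), filled where the gene was DE. Il11 and Lif were DE and below −1.8 in every fit, whereas the calls of Il6, Il6ra, Lifr and Socs3 changed with the libraries used.

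Next, the other genes of the pathway were counted by list, with the lists drawn from textbook knowledge. Every count below is to be read beside the shares of all genes called. These were 37.1% with shControl-CM and 37.8% with shBrca2-CM against control medium, and 3.09% between the CMs. Of the family's further ligands and soluble partners, 3 of 9 were tested. Clcf1, which encodes a ligand of the ciliary neurotrophic factor receptor, rose against control medium with shControl-CM (1.05) and shBrca2-CM (0.73) and had a log2 fold change of −0.29 between the CMs (edgeR adjusted p = 0.505). Ctf1, which encodes cardiotrophin-1, fell by 1.28 with shBrca2-CM against control medium (edgeR adjusted p = 0.0310), from 1, 4 and 4 counts.

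Of 4 further receptor genes 3 were tested, and the clearest was Il31ra, the receptor chain for interleukin-31. All 3 shControl-CM libraries held 0 counts of it, against 2, 10 and 11 in the shBrca2-CM domes and 111 and 42 in the control domes. No shControl-CM dome thus held a count, and the other groups did. Il31ra was at least 4.88-fold lower with shControl-CM than with control medium (edgeR adjusted p = 0.00164; bounds use 3 counts per library) and at least 2.89-fold lower than with shBrca2-CM. The latter difference had an edgeR adjusted p = 0.0180 but a mean count under 5 and so was not called. Without shControl-CM replicate 3 it was called (edgeR adjusted p = 0.00484). Il27ra, the receptor of interleukin-27, fell by 1.38 with shControl-CM against control medium (edgeR adjusted p = 0.0808), from 2, 1 and 4 counts, and differed by 0.80 between the CMs (edgeR adjusted p = 0.718). No gene of this list passed with shBrca2-CM against control medium, where Il31ra was at −0.72 and Il27ra at −0.56.

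Among Janus kinases and other STATs, 9 of 10 genes were tested. Against control medium, 3 were higher with shControl-CM and 5 with shBrca2-CM. Jak2, a kinase bound to gp130, rose by 1.61 and 1.71, Jak3, a kinase of other cytokine receptors, by 1.94 and 2.12, and Stat5a by 1.67 and 1.07, each with shControl-CM and shBrca2-CM in turn. Between the CMs the only call was Stat2, which acts in interferon responses: it was at 544, 485 and 503 CPM with shBrca2-CM and at 341, 239 and 310 CPM with shControl-CM, a log2 fold change of 0.80 (SE 0.15, edgeR adjusted p = 0.0120). The median of this list between the CMs, 0.08, lay near that of all genes, 0.028.

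Of 15 other negative regulators of the pathway, 13 were tested between the CMs and 1 was DE. Socs5, a relative of Socs3, was 0.85 higher with shBrca2-CM (SE 0.19, edgeR adjusted p = 0.0371), at 57.9, 56.0 and 59.5 CPM against 32.7, 29.95 and 34.6 CPM. Its groups did not overlap, and its direction was opposite to that of Socs3. Socs1 and Socs2, which restrain other cytokine receptors as well, fell against control medium with both CMs, Socs1 by 1.97 with shControl-CM and 1.87 with shBrca2-CM, and Socs2 by 1.43 and 1.12. These were the 2 lower calls with each CM, and with shControl-CM 2 genes were higher. Of the latter, Cish, a target of STAT5, rose by 0.99 with shControl-CM, against 0.20 with shBrca2-CM, and its difference between the CMs was −0.77 (edgeR adjusted p = 0.112). Ptpn1, a phosphatase gene, rose by 0.60 with shControl-CM, against 0.22 with shBrca2-CM, with −0.36 between the CMs (edgeR adjusted p = 0.295). Without shControl-CM replicate 3 1 more gene was higher with shControl-CM, the phosphatase gene Ptpn2, named for this change of call, at 0.68 (edgeR adjusted p = 0.0509) in place of 0.60 (edgeR adjusted p = 0.128).

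Of 30 genes listed as STAT3 targets, 26 were tested. Of all genes tested against control medium, 18.2% were called higher and 18.9% lower with shControl-CM (median log2 fold change −0.095). With shBrca2-CM 18.6% were higher and 19.2% lower (median −0.054). Of the 26 listed targets 18 rose and 2 fell with shControl-CM (median 1.23), and 20 rose and 2 fell with shBrca2-CM (median 0.95). The largest calls were acute-phase genes: Lcn2, which encodes lipocalin-2, rose by 8.98 with shControl-CM and 6.46 with shBrca2-CM, Hp, the haptoglobin gene, by 7.99 and 5.61, and Saa3, a serum amyloid A gene whose relatives are similar in sequence, by 7.77 and 5.95. Serpina3n, a serine protease inhibitor, rose by 2.84 with shControl-CM and 2.75 with shBrca2-CM, while Ccnd1, which encodes cyclin D1, fell by 3.67 and 1.44.

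Between the CMs, 2 of these 26 genes were higher and 6 lower with shBrca2-CM, against 1.54% and 1.55% of all genes tested. The median of the list was −0.13, beside 0.028 over all genes. Lcn2 (−2.50, edgeR adjusted p = 4.66e-06), Hp (−2.36, edgeR adjusted p = 7.29e-06) and Saa3 (−1.80, edgeR adjusted p = 2.26e-05) were lower. Ccnd1 was 2.24 higher (edgeR adjusted p = 7.01e-04), at 70.9, 82.1 and 51.5 CPM with shBrca2-CM, 13.4, 18.4 and 12.2 CPM with shControl-CM, and 164 and 201 CPM with control medium. Ccnd1 thus had the reverse order of the media from the ligands. To complete the count, and chosen after their values were seen, Timp1 (−1.01), Junb (−0.63) and Cebpb (−0.64) were also lower and Lbp (0.68) was higher. Lcn2, Hp, Saa3 and Cebpb are known targets of NF-kB or C/EBP factors too, so the list is not specific to STAT3. Without shControl-CM replicate 3 the median of the list was −0.25 between the CMs and 1.26 with shControl-CM against control medium. The counts without it were 3 higher and 6 lower between the CMs and 20 higher and 2 lower with shControl-CM against control medium. Named for these changes of call, the gene gained between the CMs was Cebpd, at 1.38 in place of 1.16, and those gained with shControl-CM were Bcl6, at 0.88 in place of 0.31, and Fos, at 1.07 in place of 0.65.

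Cytokine mRNAs of this family are short-lived, and 8 of 9 listed regulators of their stability were tested. Zc3h12a encodes Regnase-1, a nuclease that degrades Il6 mRNA, and it was at 83.9, 97.6 and 109 CPM with shControl-CM, 18.8, 13.7 and 20.4 CPM with shBrca2-CM, and 18.9 and 17.6 CPM with control medium. The shControl-CM domes stood alone, and the shBrca2-CM domes lay around the level of the control domes. Zc3h12a was lower with shBrca2-CM between the CMs (log2 fold change −2.41, SE 0.22, edgeR adjusted p = 1.19e-04) and 2.39 higher with shControl-CM than with control medium (edgeR adjusted p = 3.69e-05), against −0.03 with shBrca2-CM (edgeR adjusted p = 0.938). It was the only call of this list between the CMs, while 4 genes were higher and 2 lower with shControl-CM against control medium and 2 higher and 2 lower with shBrca2-CM. Rc3h2, which encodes the RNA-binding protein Roquin-2, rose by 3.66 with shControl-CM and 3.26 with shBrca2-CM. Elavl1, which encodes the stabilizing protein HuR, rose by 1.44 and 1.71. Khsrp, a decay factor, rose by 0.78 with shControl-CM, and its log2 fold change of 0.48 with shBrca2-CM was under the limit of 0.5. Of the ZFP36 family, which promotes decay of such mRNAs, Zfp36l1 fell by 1.51 with shControl-CM and 0.68 with shBrca2-CM. Zfp36 fell by 0.59 with shBrca2-CM, against −0.58 with shControl-CM, which did not pass the test (edgeR adjusted p = 0.156). Zfp36l2 was at −0.92 with shBrca2-CM (edgeR adjusted p = 0.201) and had 1, 2 and 0 counts with shControl-CM, where its summed counts were 7.95-fold below control medium (95% interval 2.59 to 39.6, counting error only).

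Of the 4 genes for the proteases that release the IL-6 receptor from the membrane and their regulators, none was DE between the CMs. Of these, Rhbdf1 (−0.36, edgeR adjusted p = 0.325) and Rhbdf2 (−0.50, edgeR adjusted p = 0.417), which encode partners of ADAM17, had the smallest p-values. Rhbdf2 rose against control medium with both CMs, by 1.17 with shControl-CM (edgeR adjusted p = 0.00744) and 0.65 with shBrca2-CM (edgeR adjusted p = 0.0470). Adam10, which encodes a receptor-cleaving protease, fell by 0.85 with shControl-CM (edgeR adjusted p = 0.0805), from 17.9, 12.6 and 7.47 CPM against 22.4 and 23.2 CPM with control medium. Without shControl-CM replicate 3, the lowest of these, its log2 fold change was −0.54 and it was not called (edgeR adjusted p = 0.169).

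The median of all genes was 0.028 between the CMs, −0.095 with shControl-CM and −0.054 with shBrca2-CM against control medium. Beside it, the medians of the lists were as follows, those of the STAT3 targets being given above. That of the further ligands, over 3 genes only, was −1.05 between the CMs and 1.05 with shControl-CM, and is not reported here with shBrca2-CM. That of the further receptors was 0.80, −1.38 and −0.56 in the same order, over 3 genes only. That of the Janus kinases and other STATs was 0.08, 0.34 and 0.51, and that of the negative regulators −0.01, 0.02 and 0.06. For the regulators of mRNA stability it was 0.10, 0.57 and 0.23, the first being 0.06 with the gene at the floor of 3 counts set to its bound, and for the sheddases and their regulators −0.29, 0.42 and 0.12. Without shControl-CM replicate 3, the median of the further ligands with shControl-CM was 0.94, and that between the CMs is not reported here. In the same setting the first 2 medians were 1.32 and −1.93 for the further receptors and −0.01 and 0.45 for the Janus kinases and other STATs. They were −0.11 and −0.08 for the negative regulators, −0.08 and 0.42 for the regulators of mRNA stability and −0.29 and 0.41 for the sheddases, beside 0 and −0.07 over all genes. The medians of the Janus kinases and of the regulators of mRNA stability between the CMs and that of the negative regulators with shControl-CM thus changed sign.

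**Figure D4:**
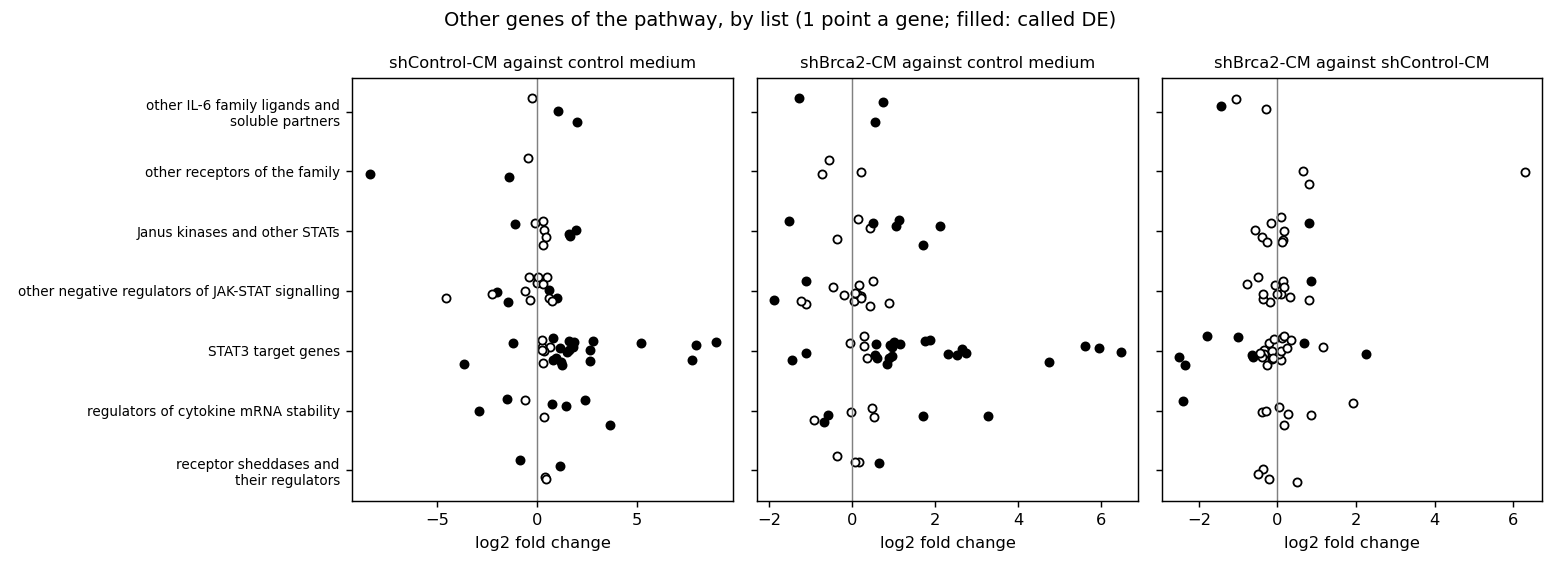
Log2 fold changes (horizontal axis; its range differs between panels) of the other pathway genes in 7 lists, 1 point a gene with vertical scatter for visibility only, filled where the gene was DE. STAT3 targets lay mostly to the right against control medium and on both sides of 0 between the CMs. Against control medium 18 and 20 of 26 were higher, beside 18.2% and 18.6% of all genes. The points of Il31ra furthest from 0 come from libraries at 0 counts and depend on the prior count of the fit.

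Finally, the genes whose levels over the 8 libraries were most like those of 4 members were sought among 7915 genes with a mean of at least 10 CPM, by the root mean square (RMS) difference of centred log2 CPM. This is a description over libraries that share their media and depth, without a test. Genes found in this way resemble the member by choice, so a shared order of media or a shared low value is no further evidence. Nearest to Lif were Nt5e (RMS 0.38), which encodes the ecto-enzyme CD73, Rarres2 (0.38), which encodes the chemoattractant chemerin, and Ptges (0.41), a prostaglandin E2 synthase. Nearest to Il11 were Saa1 (0.50), an acute-phase gene with close relatives between which reads can be split, Csf3 (0.51), which encodes G-CSF, and Slpi (0.61), a protease inhibitor. Csf3 was at 69.2, 85.0 and 109 CPM with shControl-CM and at 7.23, 7.47 and 22.2 CPM with shBrca2-CM, with 0 counts in both control libraries. Its order of media was that of Il11, which follows from the choice, and it came from 5 to 25 counts with shBrca2-CM.

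RMS differences are not scaled by a gene's range, which was narrower for Socs3 than for Lif and Il11, so they are not compared between members. The genes nearest to Socs3 were Nr4a1 (RMS 0.13), an immediate-early transcription factor gene, Rab15 (0.15), a small GTPase gene, and Mt1 (0.18), a metallothionein gene. Nr4a1 was at 240, 226 and 280 CPM with shControl-CM, 127, 122 and 158 CPM with shBrca2-CM, and 79.9 and 69.2 CPM with control medium, again without overlap. Nearest to Osmr were Msmo1 (RMS 0.22), a sterol synthesis gene, Emc2 (0.25), a gene of a membrane protein insertion complex, and Lonrf3 (0.28). All 3 shared with Osmr the low value of shControl-CM replicate 3: Msmo1 was at 202 and 145 CPM in replicates 1 and 2 and at 19.0 CPM in replicate 3, Emc2 at 13.4, 19.3 and 1.36 CPM, and Lonrf3 at 26.3, 26.1 and 1.36 CPM. These genes were chosen for likeness to Osmr over all 8 libraries, replicate 3 of shControl-CM included, so the shared low value follows from the choice.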

How the data were processed

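RNA of immortalized mouse PSCs was measured in 8 libraries of 3 groups, assigned by the recorded treatment. The authors made MARS-seq libraries, sequenced them on a NextSeq instrument and deposited raw counts per gene without pooling replicates; the submitters' processing notes name bcl2fastq, cutadapt, STAR 2.4.2a, HTSeq, DESeq2 and the build mm10. The annotation, the strand setting and the handling of molecular identifiers are not given in the sources used here, so PCR copies may be among the counts. Of the per-sample columns, 1 matched no sample and was not used.

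Each comparison had its own edgeR fit (version 4.0.16, R 4.3.3) of the libraries compared: TMM scaling, a minimum of 10 counts summed over them, the quasi-likelihood test and Benjamini-Hochberg adjustment over the genes tested. Calls needed an adjusted p-value under 0.1, a log2 fold change beyond 0.5 in either direction and a mean normalized count above 5, as in the study's Methods. Standard errors were the log2 fold change divided by the root of the F statistic, and 95% intervals used the t quantile of the fit. CPM were scaled by TMM over all 8 libraries. Scripts were tested on simulated data. Alternatives were DESeq2 1.42.0 (likelihood ratio or Wald test), other scalings, filters and thresholds, all groups in 1 fit, a replicate block, thinned libraries and each library left out. Lists without shControl-CM replicate 3 were added after the data were seen.

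The members, lists and markers were chosen with earlier results of these data known. Beyond the members, the text names from each list up to 4 called genes with the smallest p-value in a comparison, or up to 2 where none was called, and the 3 genes nearest to Lif, Il11, Osmr and Socs3. Replicate numbers carry no stated meaning, and same-numbered CM libraries did not deviate together (r across genes −0.03, −0.01 and 0.12), so the block is an alternative only. Some listed genes are not reported here. Promoter sequences are from RefSeq, and protein sequences were not used here.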

Additional observations from a re-analysis of the deposited data

How the results depend on the processing

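Over the settings other than left-out libraries, 281 of 299 member fold changes kept their direction and their side of the threshold, 13 lost a call and 2 gained one. The other 3, none of them called, changed sign: Lifr from 0.09 to −0.03 with total counts and Il6ra from −0.11 to 0.25 in thinned libraries, both with shControl-CM against control medium, and Stat3 from 0.09 to −0.03 with the replicate block, with shBrca2-CM against control medium. With 1 library left out, 9 of 160 changed sign, none of them called. Under the stricter threshold (adjusted p-value under 0.05 and a log2 fold change beyond 1 in size) 130 genes passed between the CMs, 2377 with shControl-CM and 2183 with shBrca2-CM against control medium, in place of 341, 4488 and 4555, and 4 members in place of 9 with shBrca2-CM against control medium. In libraries thinned to the smallest total, 2918 genes were DE with shControl-CM against control medium. These follow from the settings' own construction.

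With 1 library left out, the DE genes between the CMs numbered 128 to 976: 175, 128 and 160 without shBrca2-CM replicates 1, 2 and 3, and 976, 166 and 446 without shControl-CM replicates 1, 2 and 3. Among them were 2 to 5 members. With shControl-CM against control medium they numbered 1901 to 5157 (4 to 6 members), with 1901 and 2269 without control replicates 1 and 2, where the remaining control library is assumed to vary like the other group. With shBrca2-CM against control medium they numbered 3903 to 4511 (8 to 9 members). The cause was not tested.

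Without TMM, scaling by library totals shifted the median over all genes from 0.028 to 0.14 between the CMs and from −0.095 to −0.213 with shControl-CM against control medium. Between the CMs it moved the share of DE genes that were higher from 49.9% to 67.5%, and Il11, Lif and Socs3 stayed DE and lower.

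With the replicate number as a block, 311, 4513 and 3850 genes and 3, 6 and 9 members were DE in the 3 comparisons. The calls gained were Il6st in thinned libraries and, with the block, Osmr with shControl-CM against control medium (0.94, edgeR adjusted p = 1.86e-07), a fit in which shControl-CM replicate 3 has no paired control and carries no weight. The numbers do not pair the samples. Il6 had 4 to 7 counts in the shBrca2-CM libraries and spread from 6.79 to 41.0 CPM over the shControl-CM libraries. Its difference between the CMs had an SE of 0.61.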
